A study of Rattus norvegicus with 6 samples.

Results

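Class II high macrophages are macrophages of the rat hippocampus whose transcripts are rich in Cd74, the invariant chain that escorts class II molecules of the major histocompatibility complex (MHC). They were selected on measured counts: at least 4 Cd74 UMIs per 1000 UMIs of the cell, at least 3 UMIs of the complement C1q genes C1qa, C1qb and C1qc, at most 2 of the microglial genes P2ry12 and Tmem119, 0 of the B cell genes Cd79a and Cd79b, 0 of the T cell gene Cd3e, and at most 2 of the cycling genes Mki67, Top2a and Cenpf. A UMI (unique molecular identifier) marks 1 captured transcript. Of 58078 cell barcodes, 46952 had at least 1000 UMIs and at most 20% of them from mitochondrial genes, and 644 of these met the rule, 1.37% (exact 95% binomial interval 1.27 to 1.48%). Intervals here and below cover counting error only.

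The study took hippocampi of male rats 2 months after irradiation of the whole brain with 20 Gy, and labels name 3 irradiated and 3 control samples. The sources used here give neither strain nor age, and they describe no cell sorting. Minced tissue was digested, red and dead cells were removed, and libraries were made with the Chromium 3′ v3 kit. Barcodes carry a library number from 1 to 6, and 0 of the 6 libraries could be tied to a labelled sample, so the matrix is treated as 1 sample, irradiated and control rats are not compared, and there is no test.

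MHC class II molecules are pairs of an alpha and a beta chain that show peptides from engulfed proteins to CD4 T cells. Cd74 fills their groove until proteases trim it and the DM molecule swaps the remaining fragment for a peptide, while the coactivator Ciita switches the class II genes on at their promoters. In the brain, class II is a familiar property of macrophages at its borders (meninges, perivascular spaces and choroid plexus) and of dendritic cells, while resting microglia of the tissue carry little.

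Libraries held from 7479 to 11931 barcodes, and the cells that passed had a median of 4406 to 6893 UMIs. Class II high macrophages numbered 4, 34, 44, 188, 232 and 142 from library 1 to library 6. That was 0.0699% (0.0191 to 0.179%) of passing barcodes in library 1, 0.382% (0.264 to 0.533%) in library 2, 0.435% (0.316 to 0.583%) in library 3, 2.24% (1.93 to 2.58%) in library 4, 2.79% (2.44 to 3.16%) in library 5 and 2.60% (2.19 to 3.05%) in library 6. Libraries 4, 5 and 6 supplied 562 of the 644 cells, and library 1 so few that its values rest on 4 cells. The cells had 1002 to 24003 UMIs, with a median of 4954 UMIs and 1873.5 genes, and a median of 7.19% mitochondrial UMIs. The highest doublet scores marked 39 of them (6.06%), against 6.55% of all passing barcodes. Libraries shared 410 barcode sequences, 17 to 49 per pair. Of the class II high macrophages, 10 had a sequence also seen in another library, and 0 sequences were class II high macrophages in more than 1.

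**Figure D1:**
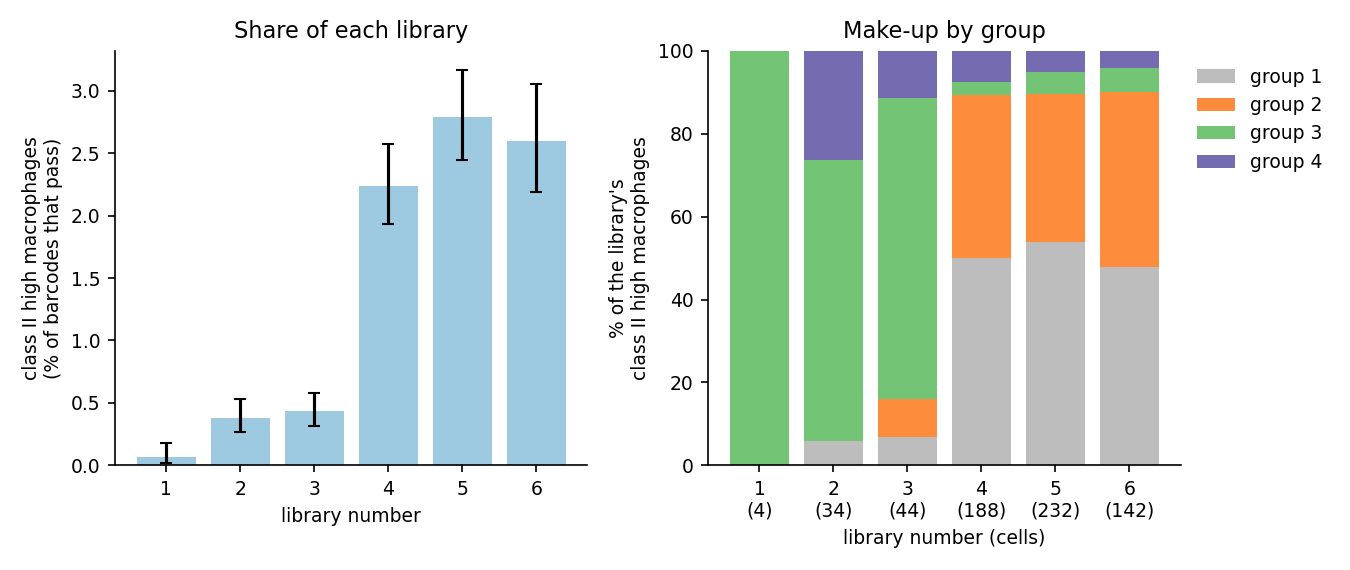
Left, class II high macrophages as a percentage of passing barcodes in each library, with exact 95% binomial intervals for counting error. Right, the percentage of each library's class II high macrophages in the 4 expression groups described in the text. The share runs from 0.0699% in library 1 to 2.79% in library 5, and group 3 makes up all 4 cells of library 1.

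4 other sets served for comparison. Class II-low macrophages (5116 cells) met the same rule with Cd74 under 4 per 1000 and had at least 5 Lyz2 UMIs per 1000, Lyz2 being the lysozyme gene of phagocytes. Microglia (23645 cells) had at least 3 UMIs of P2ry12 and Tmem119 at any Cd74, and class II-high microglia (517 cells) were those among them with at least 4 Cd74 UMIs per 1000. Astrocytes (8913 cells, chosen by their own marker genes and low C1q), which are not known as a main source of class II in resting brain, gave a level for RNA free in the droplets. Median depths were 5322.5, 5330.0, 6741 and 7656 UMIs in that order. Levels are counts per 1000000 UMIs (CPM), summed over a set's cells, with exact 95% Poisson intervals. The sets drew unequally on the libraries: libraries 4, 5 and 6 held only 1772, 1862 and 783 of the 23645 microglia. Pooled levels of class II high macrophages and microglia therefore differ by library as well as by set. Log2 ratios below compare the sets within libraries.

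The 4 marker genes of the label did not behave alike. Cd74, which chose the cells, was at 10721 CPM in class II high macrophages (10614 to 10828), and RT1-Da, the alpha chain of the rat D isotype, at 2969 CPM (2913 to 3026). The C-type lectin gene Clec10a was at 329.9 CPM (311 to 349) and did not set these cells apart from class II-low macrophages, at 345.8 CPM (339 to 352). Mrc1, the mannose receptor gene of macrophages at brain borders, was at 55.6 CPM (48.1 to 63.8) against 33.0 CPM. With every cell thinned to 1000 UMIs, Mrc1 was found in 4.50% of class II high macrophages (3.04 to 6.40%), 3.37% of class II-low macrophages and 0.0333% of astrocytes. Unthinned these shares were 11.6%, 13.9% and 0.167%. The high Cd74 was fixed by the rule and RT1-Da rises with it, so neither is a separate result. Mrc1 marked a minority of the cells that is described further on. A group of 85 cells, also described there, carried genes of microglia, with Clec10a at 38.9 CPM.

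RT1-Da, RT1-Db1 and RT1-Ba had the highest ratios to class II-low macrophages on average over the libraries compared. RT1-Da was at 1622, 6774, 6090, 2283, 2859 and 2448 CPM in class II high macrophages from library 1 to 6. In class II-low macrophages of libraries 4, 5 and 6, where at least 20 cells of both sets were present, it was at 27.4, 35.9 and 16.1 CPM. The ranges of the 2 sets were far apart, and the astrocyte level was 5.91 CPM. RT1-Db1, the beta chain that pairs with it, was at 892, 8568, 6109, 2763, 3018 and 2133 CPM, against 32.1, 31.4 and 11.8 CPM. RT1-Ba, the alpha chain of the B isotype, was at 1622, 6035, 3169, 1911, 2233 and 1859 CPM, against 28.5, 32.1 and 13.8 CPM. Library 2 was the highest in each of these 3 genes. RT1-Bb, its beta chain, was at 0, 687, 793, 207, 258 and 136 CPM, against 1.11, 2.74 and 0.783 CPM, with library 3 the highest.

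These chains were found together in single cells. Of the 644 cells, 287 (44.6%) had a UMI of all 4 chain genes, 279 (43.3%) of 3, 56 of 2, 19 of 1 and 3 of 0. After thinning to 1000 UMIs, RT1-Da was in 72.2% (68.6 to 75.6%) of class II high macrophages, 1.83% of class II-low macrophages, 5.77% of microglia and 0.633% of astrocytes; the unthinned shares were 93.9%, 7.63%, 15.2% and 3.90%. Over the 644 thinned cells, which differ in library, the rank correlation of RT1-Da with RT1-Db1 was 0.58 and with RT1-Ba 0.50. RT1-Da correlated with the lysozyme gene Lyz2 at 0.13. Within libraries 4, 5 and 6 the correlation of RT1-Da with RT1-Db1 was 0.56, 0.54 and 0.54, and with Lyz2 0.080, 0.11 and 0.17.

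**Figure D2:**
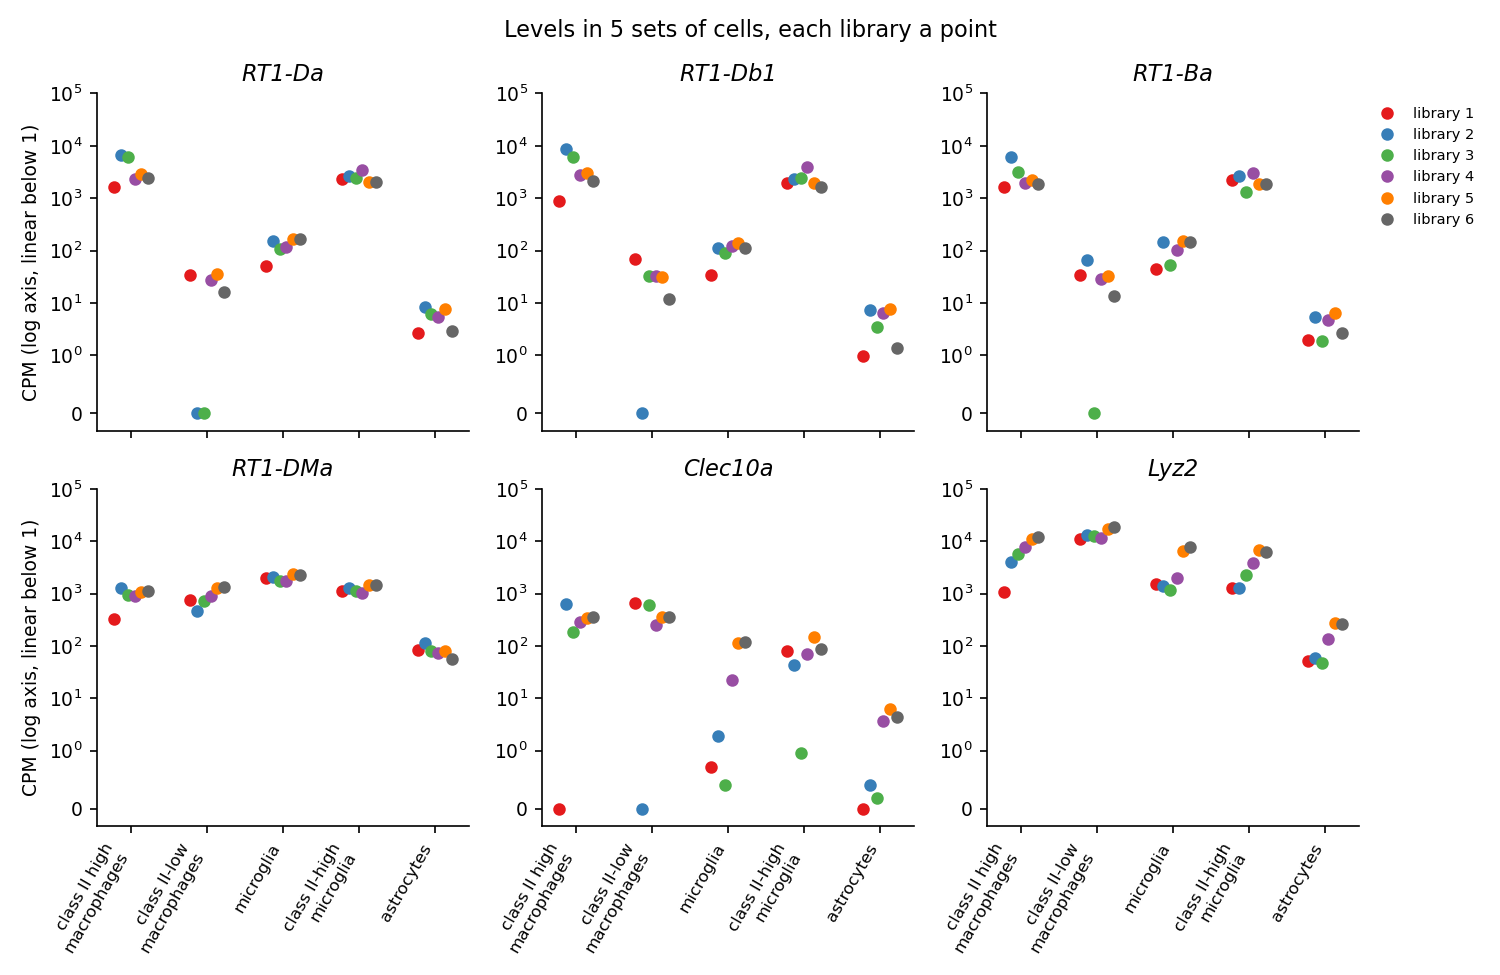
CPM of 6 genes in 5 sets of cells (log axis, linear below 1), each point 1 library (coloured by library), including libraries with fewer than 20 cells of a set. RT1-Da lies between 1622 and 6774 CPM in class II high macrophages, while RT1-DMa and Clec10a reach about the same levels in class II-low macrophages.

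The promoters of these genes are shown because the genes stood high together. RefSeq promoters of the GRCr8 assembly, 250 bases before to 50 bases after the start of a gene, were matched for 9 of 10 class II genes looked up. Printed are the 120 bases from 150 to 31 before the start, 5′ to 3′ on the gene's strand, in lower case, with TGATTGG (the Y box, a CCAAT box read on the other strand and bound by NF-Y) and GCAAC (a stretch of the X box, which RFX binds) in capitals. The 4 chain genes of the D and B isotypes are followed by RT1-DMa, whose level was not higher in these cells.
RT1-Da, chr20:4515265-4515384, plus strand: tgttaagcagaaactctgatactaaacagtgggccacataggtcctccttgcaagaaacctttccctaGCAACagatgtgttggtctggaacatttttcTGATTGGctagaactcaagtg
RT1-Db1, chr20:4560193-4560312, minus strand: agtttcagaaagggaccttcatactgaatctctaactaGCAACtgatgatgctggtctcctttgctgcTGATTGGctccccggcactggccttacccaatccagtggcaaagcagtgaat
RT1-Ba, chr20:4576907-4577026, plus strand: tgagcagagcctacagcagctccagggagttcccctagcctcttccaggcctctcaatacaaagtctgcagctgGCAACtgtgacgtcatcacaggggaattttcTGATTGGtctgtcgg
RT1-Bb, chr20:4604149-4604268, minus strand: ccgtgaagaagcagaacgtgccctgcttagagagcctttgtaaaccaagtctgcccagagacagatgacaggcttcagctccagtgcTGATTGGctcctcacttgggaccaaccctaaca
RT1-DMa, chr20:4712366-4712485, minus strand: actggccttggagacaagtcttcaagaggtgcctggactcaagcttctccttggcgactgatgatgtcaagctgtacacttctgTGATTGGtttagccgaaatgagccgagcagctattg

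Of the 9 class II promoters, 9 held TGATTGG and 7 held GCAAC followed by it on the same strand with at most 40 bases between. Searched on both strands, TGATTGG was in 7.06% of 33469 promoters of the same length, GCAAC in 35.1%, and the ordered pair in 0.275%. The gap in the pair was 26 bases in RT1-Da and RT1-Ba and 25 bases in RT1-Db1. RT1-Bb and RT1-DMa held TGATTGG without GCAAC, and the promoters of Cd74, B2m, Mrc1 and Lyz2 held no exact TGATTGG in this window. B2m held ggattgg, which differs in its first base, and Cd74 and Mrc1 held GCAAC. The letters were also present in genes whose level was not higher: RT1-DMa held TGATTGG, and RT1-Db2, at 48.6 CPM in class II high and 40.8 CPM in class II-low macrophages, held the ordered pair with a gap of 24 bases. These motifs were chosen after the sequences had been looked at, and a match is a description of letters. The annotation behind the counts is not given, so GRCr8 starts need not be those counted.

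Genes of the machinery that loads peptides are given by their levels. A gene was called where the mean of the libraries' log2 ratios, with 10 CPM added to both sides, was at least 1 in size and all of them had the same sign. Of 8204 genes compared with class II-low macrophages, 22 were called higher (0.268%) and 2 lower (0.0244%), so a count of 0 is the usual one for a short list and is not a result about it. Of 13 compared genes of peptide loading, 1 was called, Cd74, which chose the cells. RT1-DMa, a chain of the DM molecule that exchanges peptides, was at 1046 CPM (1013 to 1080) in class II high and 1262 CPM (1250 to 1275) in class II-low macrophages. RT1-DMb, its partner, was at 660 CPM (634 to 687) and 718 CPM (709 to 728). Ctss, a cathepsin that trims the invariant chain, was at 4461 and 4329 CPM, and Ifi30, a thiol reductase of the endosome, at 930 and 943 CPM. RT1-DOa, a chain of the DO molecule that restrains DM, was sparse, with 52 UMIs and 14.5 CPM (10.8 to 19.0) against 1 UMI and 0.0320 CPM (0.000811 to 0.178). Its log2 ratio was 1.44, 1.07 and 0.42 in libraries 4, 5 and 6, a mean of 0.98 that was not called, and 59.6% of its UMIs were in the 46 cells described below as group 4. RT1-DOb, its partner, was at 4.45 CPM (2.54 to 7.22) against 0.481 CPM (0.269 to 0.793). Reads of RT1-Db1 and RT1-Db2, as of other near-identical class II genes, may have been divided between them.

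Among regulators, Ciita, though sparse, had 40 UMIs in class II high macrophages, 11.1 CPM (7.94 to 15.1), against 9 UMIs and 0.288 CPM (0.132 to 0.547) in class II-low macrophages and 2 UMIs in astrocytes. Its log2 ratio was 0.97, 0.91 and 1.07 in libraries 4, 5 and 6, just under the threshold on average. Spi1, the PU.1 factor of myeloid cells, was at 261 and 268 CPM, Irf1 at 145 and 119 CPM, and the X box factor Rfx5 at 11.9 and 18.0 CPM. The median log2 ratio over 11 compared genes of class II transcription was 0.05 and over 7 of the interferon gamma receptor pathway -0.03, with Ifngr1, a chain of the receptor, at 1095 and 1113 CPM. It was 0.05 over 26 interferon-induced genes and -0.03 over all 8204 genes, and 0 genes of these lists were called, a count near the background.

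Genes of the signals that accompany antigen had levels near those of class II-low macrophages. Cd83, which holds class II at the cell surface, was at 778 CPM (750 to 808) and 799 CPM (789 to 809). Cd86, a ligand of the T cell receptor CD28, was at 93.7 CPM (83.9 to 104) and 83.9 CPM (80.7 to 87.2), Cd40 at 39.7 and 39.1 CPM and Cd80 at 5.56 and 5.51 CPM. The median log2 ratio was 0.04 over 9 compared genes of costimulation and inhibition and 0.07 over 12 of class I presentation, among them B2m at 5336 and 4519 CPM, and 0 of either list were called, again near the background. Ccr7, the receptor that guides dendritic cells to lymph nodes, had 0 UMIs in the 644 cells, with an interval up to 1.02 CPM.

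Over all genes, class II high macrophages differed from class II-low macrophages in few. Cd74 helped to choose both sets, and other genes may follow it, so the 24 calls describe these sets. The sets were also unlike in Lyz2. All class II-low macrophages had at least 5 Lyz2 UMIs per 1000 by their rule, but only 403 of the 644 class II high macrophages (62.6%). With this limit set for both, Rnd3 (0.98), Nr4a2 (0.93) and Flt3 (0.99), which are among the 24, fell under the threshold. RT1-Db1 led with a mean log2 ratio of 6.28, then RT1-Da with 6.15, RT1-Ba with 5.89, Cd74 with 5.27 and RT1-Bb with 4.15. The next were Cxcl13, a chemokine for B cells, at 2.81 (2.08, 1.67 and 4.66 in libraries 4, 5 and 6, the last above the 3.76 of RT1-Bb), Fxyd2, a subunit of the sodium pump, at 2.05, Plac8 at 1.94 and Mmp12, the macrophage elastase, at 1.67. Ly49si1 (1.66) and Ly49s7 (1.53), which belong to a family of similar receptors whose reads may be shared, and Cfd, complement factor D (1.47), complete the 12 highest. The 2 lower genes were Nol10, a nucleolar protein gene (-1.60), and Odc1, the first enzyme of polyamine synthesis (-1.09), which lie near each other in the GRCr8 gene table. Only 7 of the 24 called genes were called in all 10 alternatives run: the 4 chains, Cd74, Cxcl13 and Mmp12. For Cd74, which divided the sets each time, and the chains that rise with it, this is no evidence of stability.

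**Figure D3:**
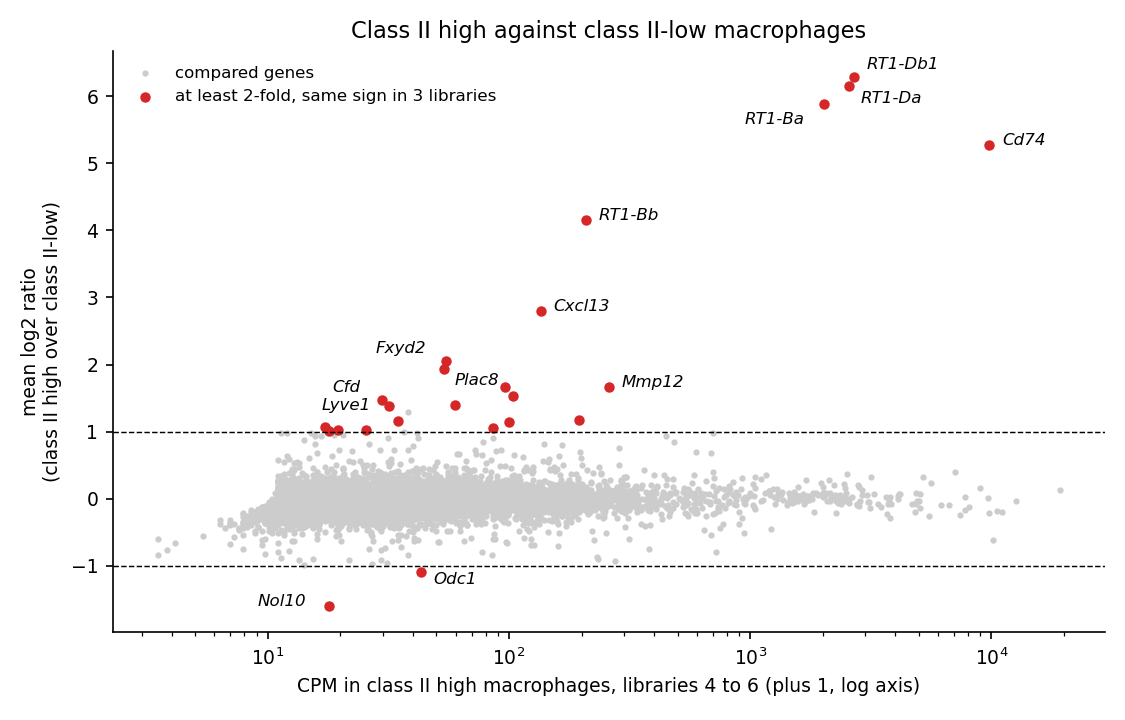
Mean log2 ratio of class II high over class II-low macrophages against the level in class II high macrophages (CPM plus 1, log axis) for 8204 genes, libraries 4 to 6. Dashed lines mark a log2 ratio of 1 in either direction, red points the 24 called genes. The class II genes lie from 4.15 to 6.28, above all other called genes.

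Several of these genes rested on few cells. Cxcl13 had a UMI in 38 of 644 cells, and 5 cells held 83.7% of its 521 UMIs; its level of 144.8 CPM was 74.1 CPM without library 6. Il10, an anti-inflammatory cytokine called at 1.15, had a UMI in 18 cells, with 67.2% of UMIs in 5. Fabp4, a fatty acid carrier called at 1.06, was in 5 cells, and neither was called without library 4. Plac8 had a UMI in 68 cells. Over all libraries, 5 cells held 50.3% of its 348 UMIs, and the 85 cells described below as group 3 held 56.0%. Mmp12 was spread wider, in 240 cells, at 230 CPM (215 to 246) against 75.0 CPM (71.9 to 78.1). Flt3, a growth factor receptor of dendritic cells, was in 77 cells at 25.3 CPM against 5.67 CPM, and was not called without library 4 or without library 5. Some dendritic cell genes were sparse, with Xcr1 in 2 cells and Siglech in 1, while others were not, with 1984 UMIs of Bst2 and 407 of Itgax. The dendritic cell list summed to 1953 CPM, against 1871 CPM in class II-low macrophages and 1904 CPM in astrocytes. Of its 17 compared genes 1, Flt3, was called.

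Class II was graded among macrophages. Without the Cd74 condition, 5519 macrophages with at least 5 Lyz2 UMIs per 1000 met the rule, 3383 with no Cd74 UMI and 403 of them class II high macrophages. RT1-Da was at 5.85 CPM (4.83 to 7.02) with no Cd74 UMI, 56.1 CPM (44.0 to 70.4) at 0.5 to 1 Cd74 UMIs per 1000, 304.5 CPM (260.3 to 354) at 2 to 3, 771 CPM (703 to 843) at 4 to 6 and 6138 CPM (5959 to 6322) at 12 or more. RT1-Db1, RT1-Ba and RT1-Bb climbed with it from 0.5 per 1000 on. Clec7a, the receptor for fungal glucans, stayed between 557 and 718 CPM, and RT1-DMa between 917 and 1332 CPM. Lyz2, high in every step by the choice of cells, lay between 12033 and 17518 CPM. It was at 17365 CPM with no Cd74 UMI, 12033 CPM at 4 to 6 and 15302 CPM at 12 or more. The number of cells fell from 240 at 0.5 to 1 to 73 at 3 to 4 and was 103 at 4 to 6, 90 at 6 to 8, 96 at 8 to 12 and 114 at 12 or more, in steps of unequal width. Just under the threshold, at 3.5 to 4 per 1000 and any Lyz2, 69 cells had RT1-Da at 549.5 CPM, and just above, at 4 to 4.5, 59 cells had 682 CPM. The threshold thus divides a range. In the highest step Cxcl13 was at 541 CPM and Clec10a at 631 CPM, against 287.7 to 353 CPM in the other steps.

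**Figure D4:**
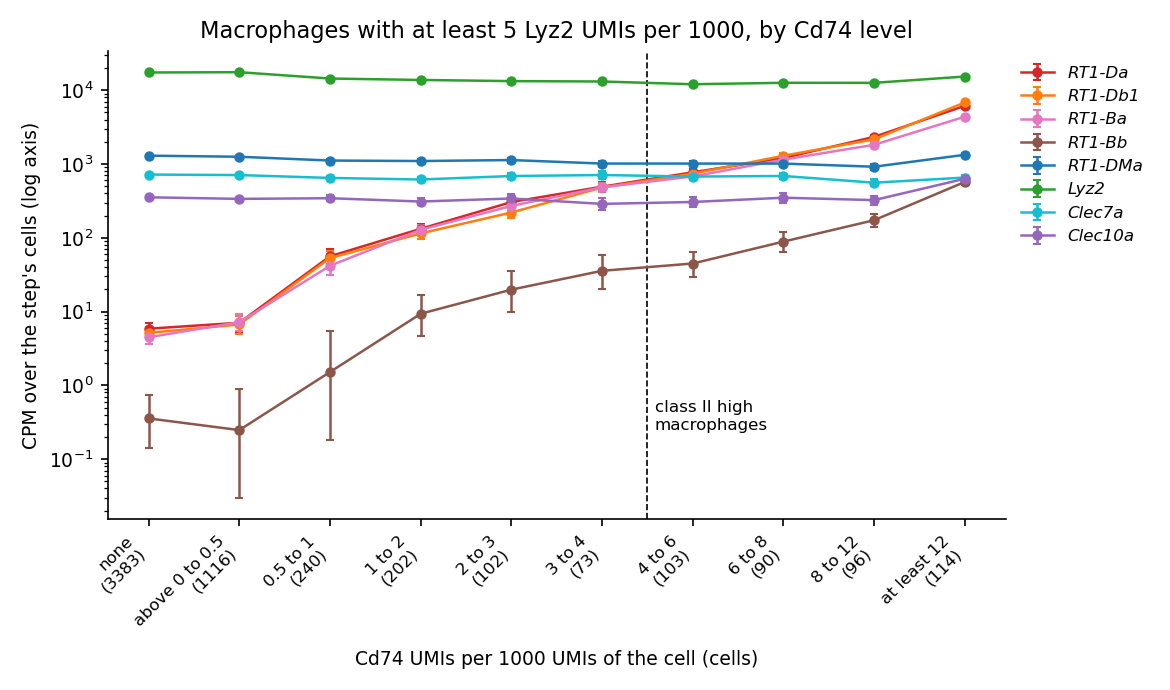
CPM (log axis) of 8 genes in macrophages with at least 5 Lyz2 UMIs per 1000, summed over cells in 10 steps of Cd74, with exact 95% Poisson intervals; numbers of cells are under the axis. RT1-Da climbs from 5.85 to 6138 CPM over the steps, with values on both sides of the dashed threshold next to each other, while RT1-DMa stays between 917 and 1332 CPM.

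For the other choices, 5 cells had exactly 3 C1q UMIs and 108 cells exactly 2 UMIs of P2ry12 and Tmem119, with RT1-Da at 20334 and 2565 CPM. Just outside, 5 cells with 2 C1q UMIs had RT1-Da at 10990 CPM, and 82 cells with 3 of the microglial UMIs had 2827 CPM. The microglial edge was not sharp either: Cst3, cystatin C, which is abundant in microglia, was at 24249 CPM just inside and 46352 CPM just outside.

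Against microglia, of which 5 libraries had enough cells beside class II high macrophages, 152 of 8536 genes were called higher (1.78%) and 257 lower (3.01%). RT1-Db1 (4.98), RT1-Da (4.63), RT1-Ba (4.48), Cd74 (4.38) and RT1-Bb (4.31) had the highest mean log2 ratios. Cxcl13 (3.48), the calcium-binding protein gene S100a11 (3.26), Clec10a (3.24), the aspartic protease gene Napsa (2.99), Gpr171 (2.90), Fxyd2 (2.87) and Ifitm1 (2.78), an interferon-induced membrane protein gene, were next. Clec7a was at 2.63 and Il1b, the interleukin 1 beta gene, at 2.20. The lowest were Tmem119 (-3.48) and P2ry12 (-3.26), which chose the sets, then Sall1 (-2.67), a factor of microglial identity, C4a (-2.65), Sparc (-2.59), Mmp2 (-2.44), F11r (-2.28), Gal3st4 (-2.25), Lhfpl2 (-2.21), Nav3 (-2.16), Sox4 (-2.16) and Cped1 (-2.15).

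Gene lists separated the same way. Of 15 compared genes of homeostatic microglia, 13 were called lower and 0 higher, with a median log2 ratio of -1.61 beside -0.16 over all genes. P2ry12 and Tmem119, which chose the sets, are among the 13 and enter the median, so their calls were fixed by the rule. The 13 also include Cx3cr1, the fractalkine receptor, at 422 against 2216 CPM. Of 15 border macrophage genes 6 were called higher and 0 lower, among them Ms4a7 at 58.4 against 4.27 CPM; of the others, Mrc1, Cd163 and F13a1 had 68.5%, 94.6% and 98.6% of their UMIs in group 4. The summed level of 20 border macrophage genes was lower, 9779 against 17543 CPM, of which Apoe made up 6636 and 16503 CPM. These are pooled levels, and the gap within libraries was smaller. From library 1 to 6 the sum was 14837, 16352, 17042, 9972, 9039 and 7456 CPM in class II high macrophages. In microglia it was 16672, 21243, 18167, 14436, 14483 and 9973 CPM. Lyve1 was at 33.3 against 80.1 CPM, and after thinning in 2.64% against 7.73% of cells. Of 18 disease-associated microglia genes 6 were called higher, such as Clec7a (553 against 48.0 CPM) and the receptor gene Axl (236 against 34.7 CPM), and 1 lower, Trem2. The log2 ratio of Clec7a was 3.52, 4.62, 2.64, 1.26 and 1.12 in libraries 2 to 6. Of 16 chemokines 5 were called higher, with Cxcl2, which draws neutrophils, at 1389 against 310 CPM. Its log2 ratio was 4.21, 2.85, 2.01, 0.37 and 0.94 in libraries 2 to 6. Of 17 dendritic cell genes 5 were called higher (Flt3, Itgax, Bst2, Traf1 and Cst7) and 1 lower, Fscn1. Peptide loading genes went apart: Cd74 and RT1-DOa were called higher and Ctss, Ctsl and Cst3 lower, and Ciita was called at 1.13. Immediate early genes, which rise during tissue dissociation, had 5 of 21 called higher, Fos at 6781 against 2475 CPM among them. Their part in the other differences was not tested.

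Microglia that were themselves class II high had RT1-Da levels in the range of class II high macrophages, in a comparison added after the data had been seen and made on cells matched by the same Cd74 limit. RT1-Da was at 2369, 2669, 2420, 3430, 2005 and 2078 CPM in these microglia from library 1 to 6, a range that overlaps the 1622 to 6774 CPM of class II high macrophages. The log2 ratio of RT1-Da was 1.34, 1.33, -0.59, 0.51 and 0.24 in libraries 2 to 6, with library 4 of the other sign, and 0 of 5 compared class II chains were called. RT1-Bb had a mean of 1.08, with 2.04 and 1.65 in libraries 2 and 3 and -0.03 in library 4, and RT1-DOa was called higher (1.06). Ciita was at 9.19 CPM (6.47 to 12.7). Over all genes 57 of 8288 were called higher (0.688%) and 77 lower (0.929%). Higher were Clec10a (2.55), Mrc1 (2.36), the coagulation factor gene F13a1 (1.67), the adaptor gene Dab2 (1.57) and Clec7a (1.30). The 46 cells of group 4 held 98.6% of the UMIs of F13a1, which was in 16 of 644 cells, 68.5% of Mrc1 and 44.9% of Dab2. Lower were Tmem119 (-3.08), which helped to choose the sets, Sparc (-2.07), Sall1 (-2.07) and Cst3 (-1.35). Levels of Cd274, which encodes the inhibitory ligand PD-L1, were 3.33 CPM in class II high macrophages and 13.9 CPM in these microglia, called lower (-1.10).

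The 644 cells were not of 1 kind. Clustering of these cells alone gave 4 groups, called here by number; the genes that lead a group formed it, so their levels are descriptions. Group 1 (292 cells) and group 2 (221 cells) held most of libraries 4, 5 and 6. Lyz2 was at 10068 and 10512 CPM and Clec7a at 592 and 695 CPM in the 2 groups, and Clec10a at 245 and 288 CPM, with RT1-Da at 2013 and 1916 CPM. Group 2 was led by Il1b at 1363 CPM (179 CPM in group 1), with the neutrophil chemokine genes Cxcl1 (754 against 11.1 CPM) and Cxcl2 (2452 against 215 CPM), the haem oxygenase gene Hmox1 (1755 against 694 CPM) and the stress factor gene Atf3 (4146 against 1340 CPM). Over 22 immediate early genes the summed level was 53680 CPM in group 2 and 26191 CPM in group 1. Among the leading genes of group 1 were the astrocyte genes Agt at 282 CPM and Aqp4 at 216 CPM. The sum of 13 astrocyte genes was 6495 CPM there and 3681 CPM in group 2, against 50182 CPM in astrocytes, and 7.19% and 4.98% of the cells had the highest doublet scores.

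Group 3 (85 cells) carried genes of microglia. Cst3 was at 67148 CPM against 6613 to 12552 CPM in the other groups, Sparc at 2996 CPM (2844 to 3153), the cathepsin gene Ctsd at 3282 CPM and the integrin gene Itgam at 295 CPM (249 to 347). Sall1 was at 61.4 CPM (41.4 to 87.6), against 206 CPM in microglia and 2.98 to 9.07 CPM in the other groups. Lyz2 was lower, at 4752 CPM, as was Clec10a, at 38.9 CPM. It held 4 of 4 cells of library 1, 23 of 34 of library 2, 32 of 44 of library 3, and 6, 12 and 8 cells of libraries 4, 5 and 6. Of all 644 cells, 371 had no UMI of P2ry12 or Tmem119.

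Group 4 (46 cells, 7.14%) held the marker genes of the label together. Cd74 was at 23247 CPM (22731 to 23773), RT1-Da at 9818 CPM (9484 to 10162), Clec10a at 1297 CPM (1177 to 1426) and Mrc1 at 414 CPM (348 to 490), against 16.4 to 22.2 CPM of Mrc1 in the other groups. These 46 cells carried 68.5% of the Mrc1 UMIs of all 644. They also held 98.6% of the UMIs of F13a1, 94.6% of Cd163, the scavenger receptor for haemoglobin, 95.2% of Stab1, another scavenger receptor, 90.8% of Lyve1, the hyaluronan receptor of vessel-associated macrophages, and 97.0% of Ccr2, the monocyte chemokine receptor. Mrc1 had a UMI in 27 of the 46 cells, against 75 of all 644 cells. Lyve1 had a UMI in 29 of the 46 cells, F13a1 in 15 and Ccr2 in 13. The group also held the few UMIs of genes of other cells: all 16 of Xcr1 and 8 of Clec9a (dendritic cells), 12 of Siglech (plasmacytoid dendritic cells), 17 of Jchain (plasma cells) and 20 of Gzmk (cytotoxic lymphocytes), and 14 of 16 of Gzma. Xcr1 and Jchain were in 2 cells each and Siglech in 1. Clec7a was at 242 CPM (192 to 301), against 592 CPM in group 1. The group had 0, 9, 5, 14, 12 and 6 cells from library 1 to 6. Those were 0.101% of passing barcodes in library 2 (0.0462 to 0.192%), 0.0494% in library 3 (0.0160 to 0.115%), 0.167% in library 4 (0.0911 to 0.279%), 0.144% in library 5 (0.0745 to 0.252%) and 0.110% in library 6 (0.0403 to 0.239%), and the intervals of neighbours in this order overlap. With 0 cells, library 1 had an interval up to 0.0645%, which lies below those of libraries 4 and 5.

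**Figure D5:**
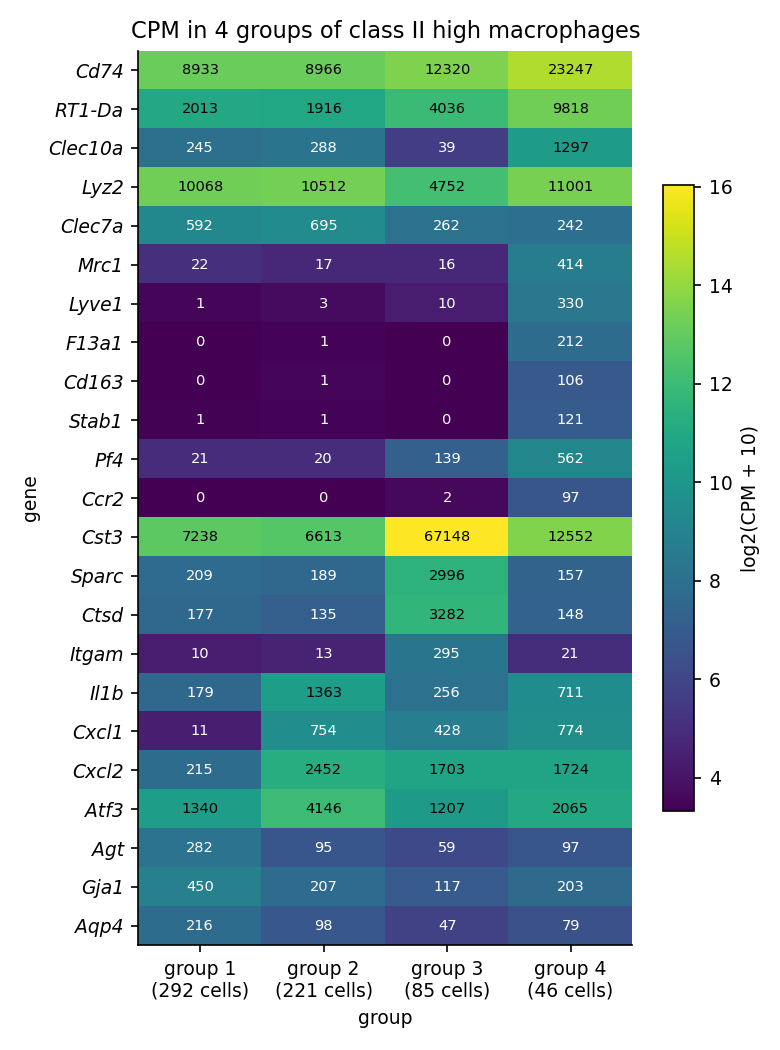
CPM of 23 genes (printed in the cells, colour as log2 of CPM plus 10) in the 4 groups of class II high macrophages. Group 4 holds Mrc1, Lyve1, F13a1, Cd163 and Stab1 with the highest Cd74 (23247 CPM), group 3 holds Cst3 and Sparc, group 2 Il1b and Atf3, and group 1 Agt and Aqp4.

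Without group 4, 25 genes were called against class II-low macrophages, 15 higher and 10 lower, of which 16 were among the 24. The chains, Cd74, Cxcl13 and Mmp12 were again called. Of those no longer called, Cfd (-0.25), Lyve1 (-0.12), Emp3 (0.04), Fxyd2 (0.45) and S100a10 (0.67) were further from the threshold, while Il10 (0.98), Klra17 (0.89) and Fabp4 (0.79) were nearer to it. Mrc1 was then at 19.3 CPM in the remaining cells, below the 33.0 CPM of class II-low macrophages, RT1-Da at 2276 CPM, Lyve1 at 3.37 CPM and F13a1 at 0.306 CPM. Most Mrc1 UMIs of class II high macrophages were thus in group 4, a cluster that Mrc1 helped to form. Group 4, 7.14% of the cells, also held 30.4% of the UMIs of RT1-Da, 31.5% of RT1-Db1, 28.5% of RT1-Ba and 39.1% of RT1-Bb. The remaining cells still met the Cd74 condition of the rule, and the chains rise with Cd74. Their high class II level therefore followed from the selection and is no separate result.

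Markers of other cell types were low or of like level in both macrophage sets, apart from neutrophil and mast cell genes. The sum of 9 B cell genes was 6.39 CPM in class II high and 5.42 CPM in class II-low macrophages, with 7 of the 9 at 0 UMIs in the former, and 0 to 73.4 CPM over libraries, highest in library 3. The sum of 11 T and NK cell genes was 24.7 and 13.6 CPM, and of 14 neutrophil and mast cell genes 17.2 and 139 CPM. Over libraries 4 to 6 this last sum was 12.4 to 19.0 CPM in class II high and 14.0 to 91.2 CPM in class II-low macrophages. The 9, 10 and 12 class II-low cells of libraries 1, 2 and 3, which enter the pooled levels but not the ratios, had up to 102448 CPM of these genes. The 13 astrocyte genes summed to 4543 and 4986 CPM, 1724 to 6467 CPM over the libraries in class II high macrophages, with 0 of them at 0 UMIs. Their part in the results was not tested.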

How the data were processed

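The deposited matrix holds UMI counts of 30452 genes in 58078 barcodes, made by the authors with Cell Ranger 7.0.0, per the file headers. Build mm10, a mouse build, stands in the submitters' processing notes although identifiers are rat Ensembl ones. The sources used here do not give the annotation version or the settings for introns and depth equalization. Totals were 46853113 to 62094407 UMIs per library. Of 536 listed genes, 490 were in the matrix; a symbol shared by several identifiers was read from the one with the most UMIs.

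The cells, gene lists and comparisons were chosen with earlier results of these data known. UMIs were summed per set and library; genes with at least 20 UMIs over both sets and 10 CPM in 1 were compared, with 10 CPM added, over libraries with at least 20 cells of both sets. For thinned shares, all class II high macrophages and class II-high microglia and 3000 cells of each other set entered. Doublets were scored against simulated sums of 2 cells (30 neighbours) and the highest 0.8% per 1000 barcodes marked, without removal. Groups came from Leiden clustering (1000 variable genes, 20 components, 15 neighbours, resolution 0.5). The ratio script was tested on simulated data. Named are genes of the rule, the label's markers, the 2 to 4 most abundant genes of described lists and those with an explained role, and the 12 genes with the largest ratios in each direction; genes of groups and those lost without group 4, of single cells and of class II-high microglia, as well as motifs, were chosen after their values were seen. Alternatives changed thresholds, added CPM, filter, scaling (TMM of edgeR 4.0.16 in R 4.3.3), thinning and libraries. RNA free in droplets was not removed. Tools were Python 3.11.15, SciPy 1.17.1, scikit-learn 1.9.0 and leidenalg 0.10.2. Nothing in the sources used here says that libraries came from separate rats.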

Additional observations from a re-analysis of the deposited data

Results flagged for a closer look

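RT1-Ba was at 6035 CPM in class II high macrophages of library 2 (34 cells), far from the other libraries, which lay between 1622 and 3169 CPM. Its gap to the nearest library was 0.649 of the whole range, above Dixon's 95% critical value for 6 values. Of 11 quantities examined this way, 1 stood out, and chance alone marks about 1 in 20. RT1-Da (6774 CPM) and RT1-Db1 (8568 CPM) were also highest in library 2, within the limit.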

How the results depend on the processing

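The share of class II high macrophages, 1.37%, was 1.54% with a mitochondrial limit of 10%, 1.19% with none, 2.11% with Cd74 of at least 2 per 1000, 0.622% with at least 8, 0.790% with 0 UMIs of P2ry12 and Tmem119, and 1.07 to 1.63% with 1 library left out. The 24 genes called against class II-low macrophages became 78 with 1 CPM added (50 higher, 28 lower), 7 with 50 CPM added, 59 with cells thinned to 1000 UMIs (21 higher, 38 lower), and 29 to 39 with 1 library left out; without library 4 they were 39, with 26 higher and 13 lower. In 10 alternatives the 5 class II genes were called each time. Cd74 divided the sets in each of them and the chains rose with it, so these calls are no evidence of stability. The 409 genes called against microglia became 985 with 1 CPM added, 122 with 50 CPM added, 608 with thinned cells (94 higher), 294 without group 4 (71 higher, 223 lower), 383 to 472 with 1 library left out, and 134 against class II-high microglia; 45 were called in all 12 alternatives. With TMM factors the numbers were 25 and 389. Of 242 levels under alternatives, 12 moved by over 1.5 times: with Cd74 of at least 8 per 1000 RT1-Da was at 5009 CPM, and without group 4 Cd163 was at 0.612 CPM. Settings with group 4 left out, with Lyz2 of at least 5 per 1000 (33 genes) or with class II-high microglia were chosen after seeing the data. No paired analysis was possible because libraries are not tied to samples, and the comparison of irradiated with control samples was not run. With 4 to 44 cells, libraries 1 to 3 limit precision.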

Other observations

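The libraries, which no label ties to a group, differed widely in several values of class II high macrophages. The share of passing barcodes was 0.0699%, 0.382%, 0.435%, 2.24%, 2.79% and 2.60% from library 1 to 6. Lyz2 was at 1054, 4004, 5737, 7829, 10980 and 11902 CPM, and the part of the cells with at least 5 Lyz2 UMIs per 1000 was 0%, 20.6%, 20.5%, 53.7%, 77.2% and 75.4%. Cst3, which microglia hold in plenty, was at 105319, 61138, 71888, 10094, 9700 and 6618 CPM. Apoe, the lipid carrier of glia, was at 14107, 14027, 15327, 6105, 5909 and 4608 CPM. Slfn4, an interferon-induced gene of myeloid cells, was at 0, 444, 9.17, 1021, 1399 and 983 CPM. The cells also fell into different expression groups: group 3, with Cst3 at 67148, Apoe at 17118 and Lyz2 at 4752 CPM, made up 100%, 67.6%, 72.7%, 3.19%, 5.17% and 5.63% of them. No condition is read from these values.

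Some genes were shared by both macrophage sets and low in microglia. Ighm, the immunoglobulin heavy chain gene, was at 120 CPM in class II high and 119 CPM in class II-low macrophages, against 17.7 CPM in microglia and 2.04 CPM in astrocytes, although cells with a UMI of the B cell genes Cd79a or Cd79b had been left out of all 3 myeloid sets. Runx3, a transcription factor gene, was likewise at 227 and 202 CPM, against 15.9 CPM in microglia. These pooled levels mix libraries in unequal parts. Within libraries 2 to 6 the log2 ratio of Runx3 to microglia was 1.39, 3.66, 2.49, 1.34 and 1.63. The mean log2 ratio of Ighm to microglia was 0.77 to 1.74 over 12 alternatives, and the gene was called in 8 of them. Of the 170 UMIs of Cxcl9, a chemokine gene induced by interferon gamma, 94.7% came from 1 cell of group 4, and 5 class II high macrophages had the gene at all.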
